A study of Mus musculus with 12 samples.

Results

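B1 and B2 are the most common short interspersed elements (SINEs) of the mouse genome, and 63 of the 42452 putative noncoding transcripts measured in these kidneys had a B1 or B2 RNA entry as their database match. The 63 were every transcript whose match text named B1 or B2 RNA. Of these, 2 matched B1 and 61 matched B2, 41 of the latter through an entry called B2 RNA and 20 through an entry called B2 SINE RNA. In all, 10852 transcripts had a match of any kind, and 0 matched an entry that named SINE RNA without B1 or B2.

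B1 elements derive from 7SL RNA, the RNA of the signal recognition particle (SRP) that directs secreted proteins to the endoplasmic reticulum, and B2 elements derive from a transfer RNA. Free B1 and B2 RNAs are made by RNA polymerase III, and B2 RNA is known to rise under cell stress and to repress RNA polymerase II. Copies of both elements also lie inside longer RNA polymerase II transcripts, where they are carried along with the host RNA.

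The study measured RNA of C57BL/6J mouse kidney in 6 groups of 2 libraries, from wild-type (WT) mice and mice lacking Smad3 (KO), the transcription factor that carries TGF-beta signals to fibrosis genes. Kidneys of each genotype were normal and untreated, taken 5 days after the left ureter was tied off (UUO, an obstruction of 1 kidney), or taken on day 10 of glomerulonephritis raised with sheep antibody against mouse glomerular basement membrane (anti-GBM) at 60 μg per g of body weight, following an immunization with sheep IgG and adjuvant. The protocol also mentions sham-operated mice, but the controls in the labels are untreated, so surgery and obstruction cannot be told apart here. The labels do not say in which cells Smad3 is deleted, mice of both sexes were used in the UUO protocol, and whether a library is 1 mouse or a pool is not given.

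The libraries held 4595261 to 7342937 uniquely mapped reads on the listed transcripts, and the 63 members took 0.186% to 0.480% of them. In 3 libraries, 1 each of WT UUO, KO UUO and KO anti-GBM (number 1 of each group), reads lay on a narrower part of the transcripts: the covered share was 0.285 to 0.447 of the share expected from reads placed at random, against 0.636 to 0.911 in the other 9. Their composition differed too. An RNA of 290 bases took 15.7% to 36.3% of their reads, against 1.70% to 6.90% in the other 9. An RNA of mitochondrial length took 1.95% to 3.68%, against 17.0% to 35.7%. These 3, picked as the lowest in covered share relative to random placement, are called the low-breadth libraries. For some of the results that involve them values without them are also given. The tables name no protein-coding genes, so the tissue and the loss of Smad3 were not checked against marker genes.

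The members were far longer than a SINE. Their length ran from 322 to 7395 bases with a median of 2158, and 56 of the 63 were over 1000 bases. The level of a member is therefore not a measurement of free B1 or B2 RNA, and which part of the transcript matched was not examined. An RFAM model of SRP RNA was assigned to 13 members, which are both B1-matched transcripts and 11 of the 61 B2-matched ones. That is 20.6% of the members, against 5.11% of the other matched transcripts and 3.72% of the transcripts with no match. The RFAM name IRES_Cx43 was given to 3 members, isrG to 3 others and 5 further names to 1 member each, while 39 had none. The tables give no coordinates or sequences for these transcripts, so none is printed and their place in genes, introns or untranslated regions was not examined.

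Expression per length spanned several orders. The most abundant member, ncRNA_aligned_7130, a B2 SINE RNA match of 5777 bases with the SRP model, had a mean of 262 RPKM (reads scaled to transcript length and to all listed reads) over the 12 libraries. Next on the RPKM scale were ncRNA_aligned_42 at 52.6, ncRNA_aligned_6384 at 43.7, ncRNA_aligned_6101 at 42.1 and ncRNA_aligned_3487 at 40.1, all B2-matched. The B1-matched ncRNA_aligned_3202 and ncRNA_aligned_5587 had means of 28.2 and 14.1 RPKM. Over the 63 members the median of the mean RPKM was 2.85, so 7130 alone stood far above the rest, with 114978 reads in all.

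Reads covered some members from end to end and others only in a small part. In the 9 libraries of higher breadth, 57 members had 20 or more reads in at least 1 library, and for these the covered share was set against the share expected from the same number of reads placed at random. This ratio exceeded 0.8 in 30 members and was below 0.5 in 13. The 2 most abundant of the SRP-model members, ncRNA_aligned_7130 and ncRNA_aligned_3487, had median ratios of 0.987 and 0.964, and ncRNA_aligned_3202 had 0.984. At the other end were ncRNA_aligned_1730 at 0.152, ncRNA_aligned_1731 at 0.200, ncRNA_aligned_2798 at 0.236, ncRNA_aligned_5029 at 0.240, ncRNA_aligned_3744 at 0.251 and ncRNA_aligned_7865 at 0.260. For such members the reads came from a fraction of the listed length, and their RPKM spreads that signal over the whole transcript. The largest covered share in any library was 90% or more in 30 members and under 40% in 17.

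**Figure D1:**
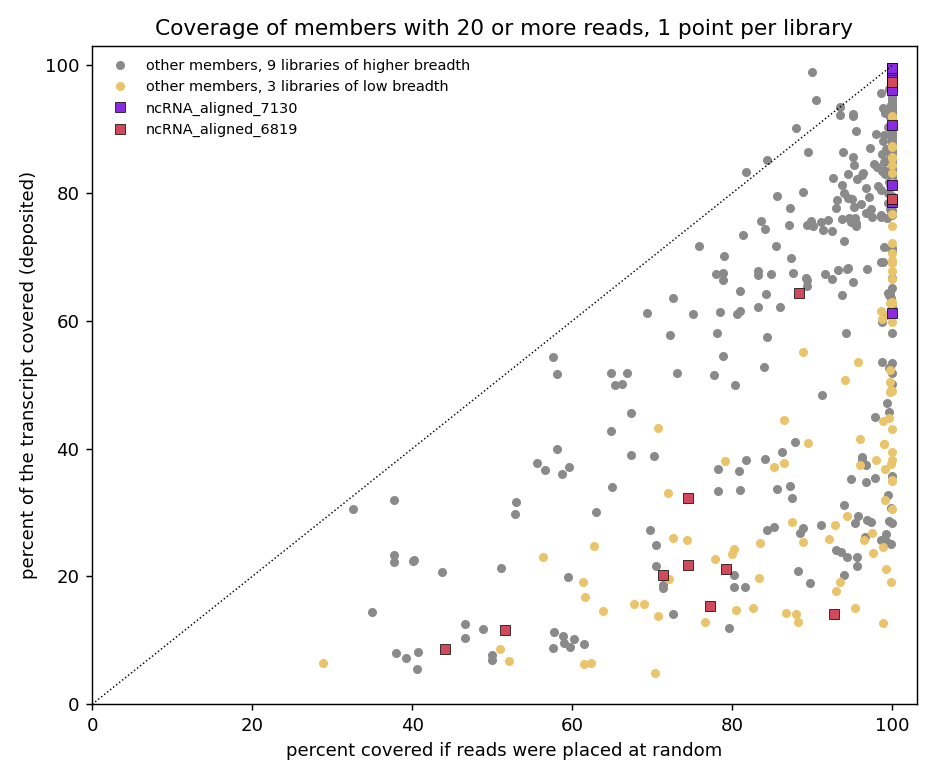
Percent of a member's length covered by reads (y axis, as deposited) against the percent expected if its reads were placed at random (x axis), 1 point per member and library with 20 or more reads; the dotted line marks equality. Yellow points are the 3 low-breadth libraries, ncRNA_aligned_7130 (purple squares) is covered by 61.23% to 99.55%, and ncRNA_aligned_6819 (red squares) comes nearest to the line in WT UUO 1, WT UUO 2 and KO UUO 2, with ratios of 0.791, 0.974 and 0.728.

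Levels between groups are given as CPM, read counts relative to a library size adjusted by the TMM method. TMM is meant to reduce the effect of a few very abundant transcripts on the rest. The summed CPM of the 61 B2-matched transcripts was 5751 ± 810 (SD, n = 2 here and for all group means below) in WT normal kidney. In WT UUO it was 1978 ± 228, and WT anti-GBM had 1887 ± 117. In KO kidney the sum was 2411 ± 487 in normal, 3470 ± 1840 in UUO and 4515 ± 1171 in anti-GBM. The 2 WT normal libraries were thus above all other WT libraries, while the KO normal libraries lay below them and below both KO anti-GBM libraries. In bulk tissue, fewer cells of a type and less RNA per cell cannot be told apart.

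These differences of the sum lay largely in 1 transcript, although WT anti-GBM stayed the lowest group without it. ncRNA_aligned_7130 made up 68.9% and 73.5% of the B2 sum in the WT normal libraries, 10.9% and 23.7% in WT UUO, and 57.2% and 65.1% in KO anti-GBM. Without it the B2 sum was 1644 ± 45.0 CPM in WT normal, 1626 ± 9.23 in WT UUO, 1314 ± 216.8 in WT anti-GBM, 1518 ± 61.1 in KO normal, 1590 ± 346 in KO UUO and 1721 ± 202 in KO anti-GBM. The difference of the mean log2 sums, WT UUO minus WT normal, was -1.54 for the whole B2 sum and -0.02 without 7130. The deposited RPKM, which is scaled to all listed reads, gave a log2 ratio of -0.28 for the same comparison, so the size of this difference depended on the scaling.

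The summed CPM of the 2 B1-matched transcripts was flat, with group means from 183 in WT UUO to 220 in KO anti-GBM and SDs of 6.75 to 37.9. On the RPKM scale the B1 sum was 30.5 ± 1.396 in WT normal and 59.0 ± 7.47 in WT UUO. The direction of the B1 sum between these groups is therefore set by the scaling, with a log2 ratio of -0.08 by TMM and 0.96 by library size alone.

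**Figure D2:**
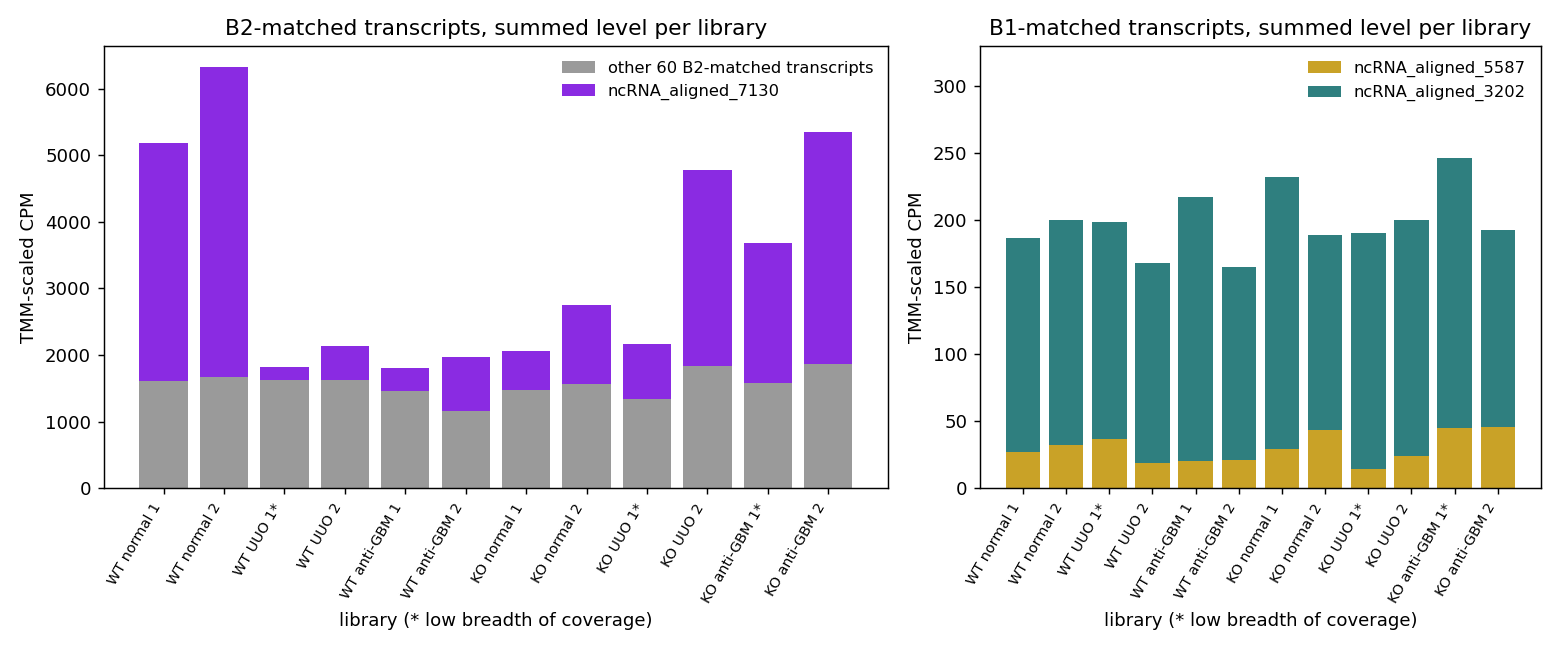
Summed TMM-scaled CPM (y axes, from 0) of the B2-matched (left) and B1-matched (right) transcripts in each of the 12 libraries (x axes); colours split the sums by transcript and stars mark the low-breadth libraries. The purple part of the left bars, ncRNA_aligned_7130, ranges from 198 to 4648 CPM, while the grey part made of the other 60 transcripts ranges from 1161 to 1864.

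ncRNA_aligned_7130 fell in UUO of WT kidney. Its level was 3567 and 4648 CPM in the WT normal libraries, 198 and 507 in WT UUO, and 337 and 809 in WT anti-GBM. In KO kidney it was 592 and 1194 CPM in normal, 824 and 2936 in UUO, and 2109 and 3479 in anti-GBM. Both WT normal libraries were above every other library, all 4 WT disease libraries lay below 810 CPM, and the KO normal and KO UUO libraries overlapped. A lack of overlap was common with so few libraries. By comparison of 2 groups, it held for 30.8% to 54.7% of all transcripts tested and 43.1% to 75.9% of the members tested.

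Against WT normal, the log2 fold change of ncRNA_aligned_7130 was -3.54 ± 0.71 (SE; all errors of log2 fold changes are standard errors) in WT UUO, with an edgeR adjusted p of 0.0225. In WT anti-GBM it was -2.84 ± 0.69 with an edgeR adjusted p of 0.271, so that change did not pass the threshold of 0.05, although DESeq2 gave an adjusted p of 0.0140. In KO kidney the log2 fold change was 1.07 in UUO and 1.65 in anti-GBM, with edgeR adjusted p-values of 0.841 and 0.557. Among normal kidneys, KO was lower than WT by a log2 fold change of -2.20 ± 0.67 with no overlap of the libraries (edgeR unadjusted p = 0.00667, adjusted p = 1).

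The fitted disease responses of 7130 had opposite signs in the 2 genotypes, and their difference was tested as an interaction. Of the KO UUO libraries only number 2, at 2936 CPM, lay above both KO normal libraries, at 592 and 1194. KO UUO 1, at 824 CPM, lay between them. The UUO response in KO minus that in WT was 4.62 ± 0.95 on the log2 scale for ncRNA_aligned_7130, with an edgeR adjusted p of 0.160. The anti-GBM response in KO minus that in WT was 4.49 ± 0.95, with an edgeR adjusted p of 0.271. Neither passed the threshold. DESeq2 called both, with adjusted p-values of 0.00167 and 0.00398. It called 0.52% and 0.508% of all transcripts tested in the 2 interactions.

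The low-breadth library was the lower of its pair for ncRNA_aligned_7130 in all 3 groups that hold one, with 198 against 507, 824 against 2936 and 2109 against 3479 CPM. Without those 3 libraries the log2 fold change was -3.02 in WT UUO (edgeR adjusted p = 0.0228) and -2.80 in WT anti-GBM (0.0129). Leaving out 1 library at a time kept the WT UUO call in 9 of 12 fits. It was lost without WT normal 1 (edgeR adjusted p = 0.0566), WT normal 2 (0.0877) or WT UUO 1 (0.138). Scaling ended it as well: with DESeq2 size factors the edgeR adjusted p was 0.0558 and with library size alone 0.0763, and limma on log2 RPKM gave 0.0596.

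With edgeR on all 12 libraries, UUO in WT kidney was the comparison with most calls. Of the 63 members, 58 passed the filter on low counts and were tested. The other 5 had 79, 52, 20, 13 and 2 reads over all libraries. Of the 58, 5 were called at an adjusted p under 0.05, all B2-matched, 2 higher and 3 lower. That is 8.62% of the members tested, against 2.42% of all 24816 transcripts tested, of which 0.681% were higher and 1.74% lower. At an unadjusted p under 0.05 there were 18 members, 31.0% of those tested, against 15.8% of all transcripts. These shares were not matched for level. The 63 members had a median of 556 reads over all libraries, against 211 in other matched transcripts and 58 in those with no match. DESeq2 called 11 members, among them the 5 called by edgeR, against 5.55% of all. limma on log2 RPKM called 3 members, against 3.24% of all. The balance of directions depends on the scaling. DESeq2 size factors in the edgeR fit gave 3 members higher and 1 lower, against 0.999% and 1.34% of all. Library size alone gave 7 and 1, against 3.57% and 0.552%. The median log2 fold change was -0.09 over the 58 members and 0.49 over all transcripts tested, and by library size alone these were 0.96 and 1.55.

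ncRNA_aligned_6819, a B2 SINE RNA match of 3101 bases, had the largest positive log2 fold change among members with a mean of 5 CPM or more. It had 5.34 and 4.34 CPM in WT normal, 46.04 and 115 in WT UUO. WT anti-GBM had 5.73 and 5.88 CPM, KO normal 10.4 and 9.76, KO UUO 9.58 and 12.4, and KO anti-GBM 3.09 and 9.26. Both WT UUO libraries stood above all the others, which ranged from 3.09 to 12.4 CPM.

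The log2 fold change of ncRNA_aligned_6819 in WT UUO against WT normal was 4.05 ± 0.70 (edgeR adjusted p = 0.00219). Against WT anti-GBM it was 3.79 ± 0.69 (edgeR adjusted p = 0.0247), the only member called in that comparison. KO UUO was lower than WT UUO by a log2 fold change of -2.87 ± 0.66 with no overlap (edgeR adjusted p = 0.152, DESeq2 adjusted p = 0.00138). The UUO response in KO minus that in WT was -3.93 ± 0.92 (edgeR adjusted p = 0.135, DESeq2 adjusted p = 0.00284).

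The shape of its coverage differed as well. In WT UUO the reads covered 79.1% and 97.39% of ncRNA_aligned_6819, and in WT normal 11.67% and 8.64%. The WT normal shares were 0.226 and 0.196 of what their 25 and 20 reads would cover if placed at random, against 0.791 and 0.974 in WT UUO. KO UUO 2, with 74 reads over 64.33% of the length, had a ratio of 0.728, and all remaining libraries with 20 or more reads had ratios of at most 0.434. Outside these 3 UUO libraries the reads thus lay in a limited part of the transcript. No test was made of this difference.

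ncRNA_aligned_90, a B2 RNA match of 7395 bases and the longest member, rose too. Its levels were 37.0 and 32.7 CPM in WT normal, 156 and 262 in WT UUO. WT anti-GBM had 97.5 and 55.7 CPM, KO normal 33.1 and 45.4, KO UUO 58.8 and 113, and KO anti-GBM 56.2 and 52.8. All disease libraries were above the normal libraries of both genotypes, and WT UUO was the highest group. The log2 fold change in WT UUO was 2.58 ± 0.51 (edgeR adjusted p = 0.00564). It was 1.13 ± 0.49 in WT anti-GBM (edgeR adjusted p = 0.698) and 1.13 ± 0.48 in KO UUO (0.797), neither past the threshold. The covered share of ncRNA_aligned_90 was 41.1% and 38.34% in WT normal and 59.86% and 98.03% in WT UUO.

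ncRNA_aligned_5163, a B2 SINE RNA match of 1741 bases with the SRP model, had the most negative log2 fold change. It went from 49.8 and 53.8 CPM in WT normal to 1.04 and 2.43 in WT UUO, the latter from 7 and 29 reads. It had 6.10 and 9.70 CPM in WT anti-GBM, 10.6 and 28.2 in KO normal, 2.02 and 14.9 in KO UUO, and 3.09 and 11.03 in KO anti-GBM. As for 7130, both WT normal libraries were above every other library.

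The log2 fold change of ncRNA_aligned_5163 in WT UUO was -4.85 ± 0.92 (edgeR adjusted p = 0.00457). In WT anti-GBM it was -2.71 ± 0.83 (edgeR adjusted p = 0.352), and in KO UUO and KO anti-GBM -1.20 and -1.44 with overlapping groups (edgeR adjusted p-values 0.848 and 0.604). The low-breadth library was again the lower of each pair, and without WT UUO 1 the WT UUO value was -4.40 (edgeR adjusted p = 0.102). On the 9 libraries of higher breadth, where WT UUO also has 1 library, it was -4.40.

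ncRNA_aligned_2798, a B2-matched transcript of 5017 bases whose reads covered at most 26.21% of its length, was the weakest of the 5 calls. It had 32.7 and 27.5 CPM in WT normal and 7.90 and 2.01 in WT UUO. KO normal was at 38.0 and 39.3 CPM, KO UUO at 26.6 and 8.03, WT anti-GBM at 8.79 and 13.0, and KO anti-GBM at 30.4 and 31.5. All 4 WT disease libraries were below the WT normal ones. The log2 fold change in WT UUO was -2.62 ± 0.69 (edgeR adjusted p = 0.0434), and the call was kept in 5 of 12 fits with 1 library left out. Among the 7 that ended it, those without WT normal 1, WT normal 2 and WT UUO 2 gave edgeR adjusted p-values of 0.271, 0.190 and 0.208. The others, without either WT anti-GBM or either KO normal library, gave 0.0541 to 0.0711. DESeq2 size factors (0.0707), library size alone (0.168), a fit of the WT normal and WT UUO libraries alone (0.0565) and limma (0.234) ended it too.

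The calls of ncRNA_aligned_6819 and ncRNA_aligned_90 in WT UUO were kept in 10 of 12 such fits and that of ncRNA_aligned_5163 in 11, and limma gave 5163 an adjusted p of 0.0502. The 2 fits that lost both 6819 and 90 were those without WT normal 1 (edgeR adjusted p = 0.0641 for 6819 and 0.1199 for 90) and without WT normal 2 (0.0876 and 0.156). In both of these fits 1 of the 58 members was called. The call of 6819 against WT anti-GBM was lost without WT normal 1 (0.0516), WT normal 2 (0.0508), WT UUO 2 (0.170), WT anti-GBM 1 (0.393) or WT anti-GBM 2 (0.388), and limma gave 0.105.

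**Figure D3:**
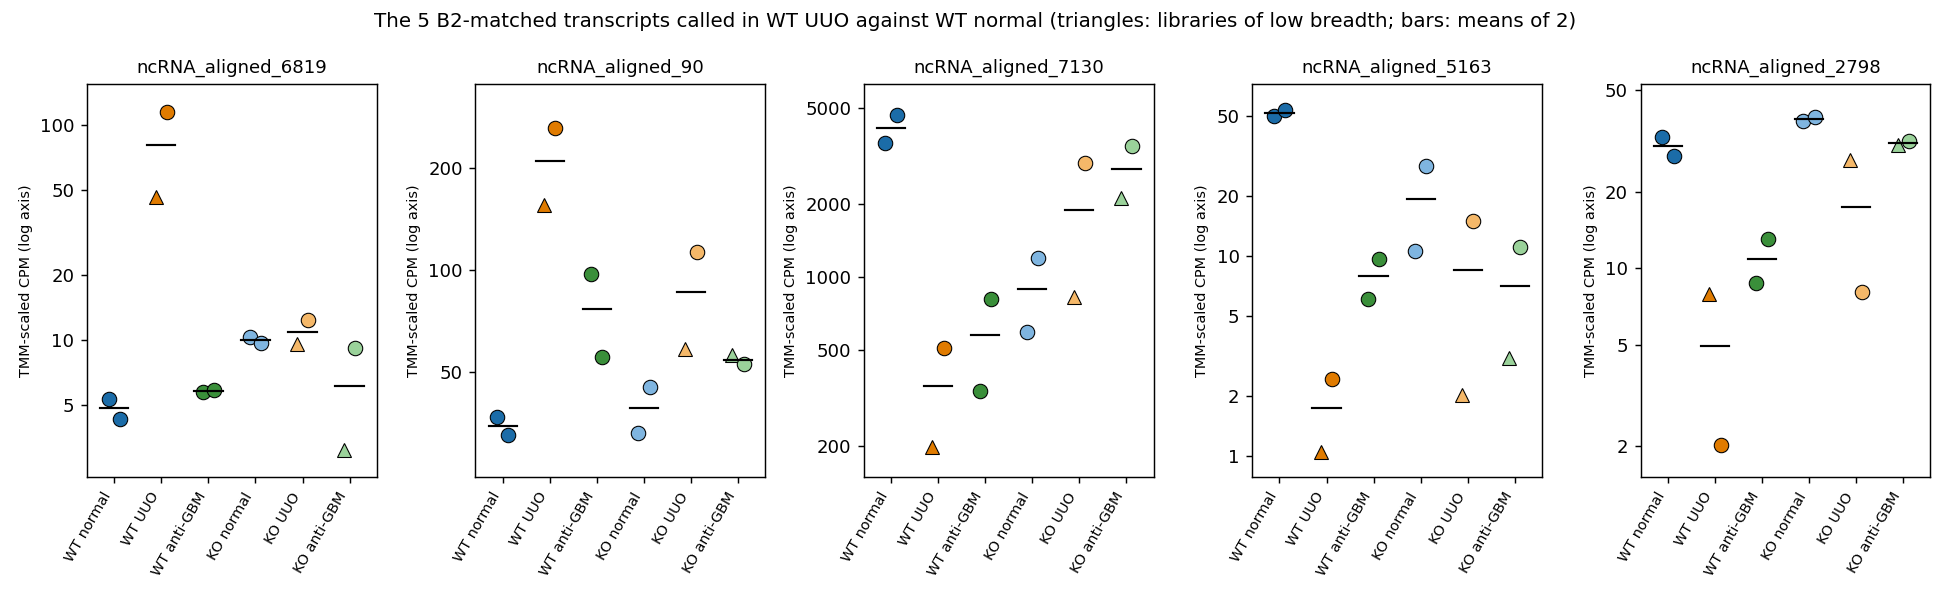
TMM-scaled CPM (y axes, log scale) of the 5 members called in WT UUO against WT normal, by group (x axes); each point is a library, triangles are low-breadth libraries and bars are means of 2. ncRNA_aligned_6819 and ncRNA_aligned_90 peak in WT UUO, at up to 115 and 262 CPM, and ncRNA_aligned_7130 and ncRNA_aligned_5163 peak in WT normal, at up to 4648 and 53.8.

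Just past the threshold in the same comparison was ncRNA_aligned_7865, a B2 RNA match with 20.9 and 23.4 CPM in WT normal and 0.745 and 4.37 in WT UUO, the latter from 5 and 52 reads. Its log2 fold change was -3.07 ± 0.84 (edgeR adjusted p = 0.0517). In UUO the KO libraries had 6.39 and 23.9 CPM and lay above the WT ones, by a log2 fold change of 2.52 ± 0.82 (edgeR adjusted p = 0.553).

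ncRNA_aligned_3487, the B2 SINE RNA match with the SRP model and a mean of 40.1 RPKM, was high in UUO of both genotypes. It had 120 and 101 CPM in WT normal and 326 and 318 in WT UUO. In KO it had 52.4 and 126 CPM in normal, 239 and 310 in UUO, and 210 and 242 in anti-GBM, and in WT anti-GBM 114 and 66.5. The UUO libraries of each genotype were above its normal libraries, and in anti-GBM the KO libraries were above the WT ones. The log2 fold change was 1.54 ± 0.46 in WT UUO (edgeR adjusted p = 0.0794) and 1.62 ± 0.46 in KO UUO (0.384), and the edgeR fit with DESeq2 size factors called the former.

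ncRNA_aligned_6030, a B2 RNA match of low level, had 3.85 and 3.47 CPM in WT normal, 14.7 and 14.8 in WT UUO and 9.88 and 9.04 in WT anti-GBM. Its log2 fold change in WT UUO was 2.01 ± 0.77 (edgeR adjusted p = 0.199).

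**Figure D4:**
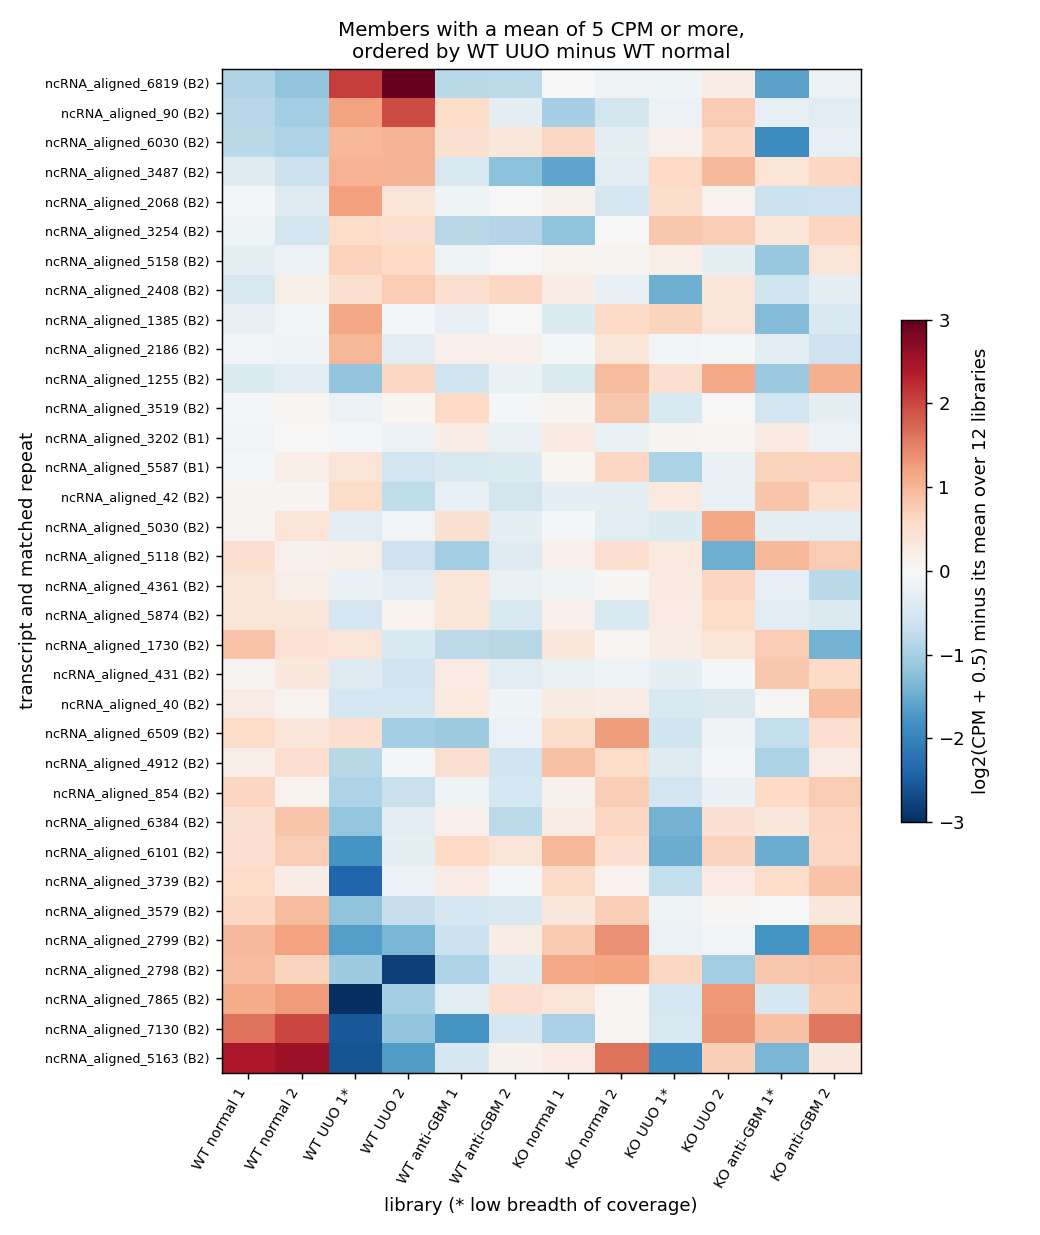
log2(CPM + 0.5) of each of the 34 members with a mean of 5 CPM or more, minus the transcript's mean over the 12 libraries (colour), by transcript (rows) and library (columns), with the colour scale ending at 3 and -3; rows run from the largest to the smallest difference of WT UUO from WT normal. The rows at both ends differ between WT normal and WT UUO in both libraries, and ncRNA_aligned_3202, in the middle, is close to 0 in all 12 libraries.

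In WT anti-GBM against WT normal, edgeR called 0 of the 58 members, against 0.0201% of all transcripts tested, with 6 members at an unadjusted p under 0.05 (6.56% of all). DESeq2 called 1, ncRNA_aligned_7130, against 0.669% of all. Besides 7130 and 5163, among members with a mean of 5 CPM or more, the largest negative log2 fold change was that of ncRNA_aligned_1730, -1.62 ± 0.87, with 9.41 and 6.94 CPM in WT normal and 2.68 and 2.61 in WT anti-GBM. The largest positive one was that of ncRNA_aligned_6030, 1.37 ± 0.76. Fitted on the WT normal and WT anti-GBM libraries alone, edgeR called 10 of 58 members, against 9.13% of all transcripts.

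In KO UUO against KO normal, edgeR called 0 of 58 members, against 0.0121% of all, with 4 at an unadjusted p under 0.05 (5.98% of all). DESeq2 called 1, ncRNA_aligned_3487, against 0.496% of all. ncRNA_aligned_3254, a B2 RNA match, had 17.9 and 41.1 CPM in KO normal and 73.9 and 69.9 in KO UUO, a log2 fold change of 1.29 ± 0.50 (edgeR adjusted p = 0.755). In the lower direction, among members with a mean of 5 CPM or more, ncRNA_aligned_6509 had the largest value, -1.32 ± 0.73.

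In KO anti-GBM against KO normal, edgeR called 0 of 58, against 0.0524% of all, with 4 at an unadjusted p under 0.05 (8.75% of all), and DESeq2 called 0, against 0.427%. Among members with a mean of 5 CPM or more, the 3 largest positive values were those of ncRNA_aligned_7130 at 1.65, ncRNA_aligned_3487 at 1.34 and ncRNA_aligned_3254 at 1.02. In each of these the KO anti-GBM libraries were above the KO normal ones, as in 24.1% of the members tested and 11.7% of all transcripts.

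**Figure D5:**
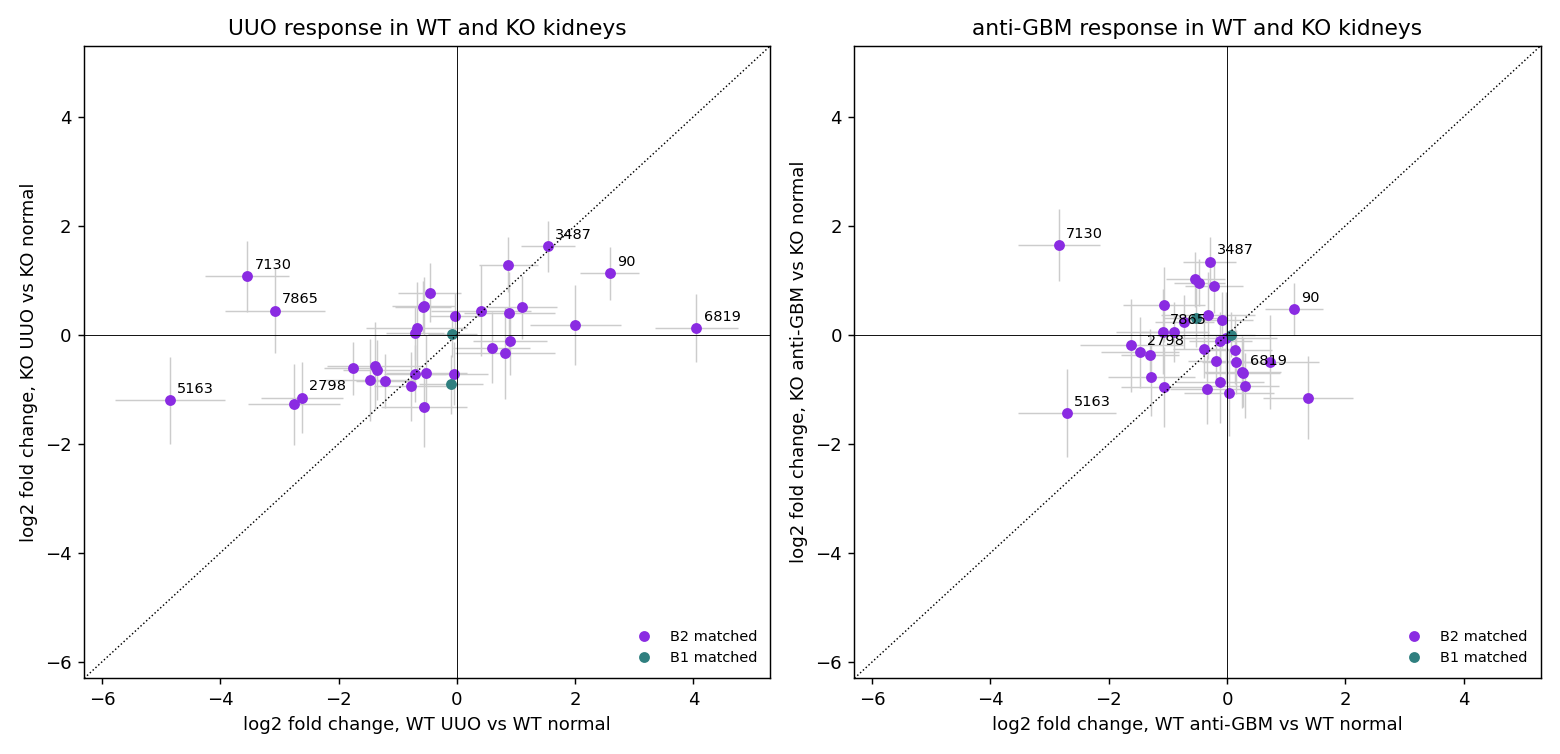
log2 fold change against normal kidney of the same genotype in WT (x axes) and KO (y axes) for UUO (left) and anti-GBM (right), for the 34 members with a mean of 5 CPM or more; error bars are standard errors and the dotted line marks equal responses. In both panels ncRNA_aligned_7130 has a negative value in WT and a positive value in KO, and ncRNA_aligned_6819 is at 4.05 in WT UUO.

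Of the 34 members with a mean of 5 CPM or more, 22 had the same sign of the UUO response in WT and KO, 8 positive and 14 negative, while 9 were negative in WT and positive in KO and 3 the reverse. For anti-GBM the signs were the same in 14, 2 positive and 12 negative, 12 were negative in WT and positive in KO, and 8 the reverse. These signs follow the TMM scaling and include members whose groups overlap. Pairs of signs were not counted over other transcripts of like level. The counts therefore do not show whether the members differ from those.

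Comparing KO with WT directly, edgeR called 0 of 58 members in normal kidney (0.0161% of all), with 1 member at an unadjusted p under 0.05 (2.22% of all), which was ncRNA_aligned_7130. In UUO it called 0 (0.00806% of all), with 7 members at an unadjusted p under 0.05 (6.08% of all). In anti-GBM it called 0 (0.0201% of all), with 10 members at an unadjusted p under 0.05 (14.8% of all). DESeq2 called 0, 1 and 0 members, against 0.177%, 0.447% and 1.75% of all, the 1 being ncRNA_aligned_6819. In UUO the largest positive log2 fold changes among members with a mean of 5 CPM or more were those of ncRNA_aligned_7865 at 2.52, ncRNA_aligned_7130 at 2.42 and ncRNA_aligned_5163 at 2.23. The WT and KO libraries of 5163 overlapped in UUO, while those of the other two did not. All 3 values rested on KO UUO 2: without it they were 1.27 for ncRNA_aligned_7865, 1.23 for ncRNA_aligned_7130 and 0.18 for ncRNA_aligned_5163, and without WT UUO 2 that of 7865 was 4.31.

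In anti-GBM, ncRNA_aligned_7130 was higher in KO by a log2 fold change of 2.29 ± 0.67 (edgeR adjusted p = 0.237) with no overlap. ncRNA_aligned_5118, a B2 SINE RNA match, had 5.12 and 8.28 CPM in WT anti-GBM and 22.4 and 19.1 in KO anti-GBM, a log2 fold change of 1.63 ± 0.70 (edgeR adjusted p = 0.310). For ncRNA_aligned_2798 the log2 fold change was 1.51 ± 0.66 (0.314). The B1-matched ncRNA_aligned_5587 had 20.3 and 21.0 CPM in WT anti-GBM and 44.8 and 45.5 in KO anti-GBM, a log2 fold change of 1.13 ± 0.54 (0.337). In these 4 members both KO libraries were above both WT ones, as in 29.3% of the members tested and 13.4% of all transcripts. None of the 4 passed the threshold.

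UUO against anti-GBM in WT gave the 1 call named above, ncRNA_aligned_6819, against 0.0967% of all transcripts tested, with 6 members at an unadjusted p under 0.05 (5.77% of all). DESeq2 called 2, ncRNA_aligned_6819 and ncRNA_aligned_3487, against 0.83% of all. In KO edgeR called 0, against 0.0242% of all, with 5 members at an unadjusted p under 0.05 (13.1% of all), and DESeq2 called 0, against 1.7%. The largest values in KO among members with a mean of 5 CPM or more were 1.46 for ncRNA_aligned_1385 and -1.25 for ncRNA_aligned_5118.

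For the interactions edgeR called 0 of 58 in UUO (0.0604% of all), with 6 members at an unadjusted p under 0.05 (5.63% of all). It called 0 in anti-GBM (0.0161% of all), with 7 members at an unadjusted p under 0.05 (10% of all). DESeq2 called 2 in UUO, ncRNA_aligned_6819 and ncRNA_aligned_7130, against 0.52% of all, and 1 in anti-GBM, ncRNA_aligned_7130, against 0.508%. After 7130, among members with a mean of 5 CPM or more, the largest positive UUO interactions were 3.65 ± 1.16 for ncRNA_aligned_5163 (edgeR adjusted p = 0.485) and 3.52 ± 1.13 for ncRNA_aligned_7865 (0.494). Without KO UUO 2 they were 1.60 for ncRNA_aligned_5163 and 2.27 for ncRNA_aligned_7865, and without WT UUO 2 that of 7865 was 5.302. In anti-GBM, with the same limit on the mean, the largest negative interaction was -2.52 ± 1.08, for ncRNA_aligned_6030 (0.471).

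limma on log2 RPKM called 0 members in each of the 10 comparisons other than WT UUO against WT normal. Of all transcripts it called 0.0121% in KO against WT normal, 0.197% in KO against WT UUO, 0.214% in KO against WT anti-GBM, 0.189% in UUO against anti-GBM of WT and 0.0524% in that of KO, and 0% in the remaining 5.

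ncRNA_aligned_3579, a B2-matched transcript with a mean of 16.9 RPKM, had 62.4 and 78.7 CPM in WT normal and 17.1 and 24.7 in WT UUO. Its log2 fold change was -1.75 ± 0.49 (edgeR adjusted p = 0.0596), and DESeq2 called it. The next 2 members were called in no comparison by edgeR or DESeq2 on all 12 libraries. ncRNA_aligned_42, a B2 RNA match, had 360 CPM in both WT normal libraries and 503 and 201 in WT UUO. WT anti-GBM had 287 and 233.3 CPM, KO normal 283 and 278, KO UUO 415 and 296, and KO anti-GBM 608 and 480.3. KO anti-GBM was above both KO normal and WT anti-GBM, while in UUO the spread between libraries of a group exceeded the difference between genotypes. ncRNA_aligned_6384, a B2 SINE RNA match of 1370 bases, had 80.2 and 103.2 CPM in WT normal and 25.8 and 45.8 in WT UUO, with 64.5 and 33.4 in WT anti-GBM. In KO it had 67.8 and 90.4 CPM in normal, 21.3 and 80.0 in UUO and 72.4 and 91.8 in anti-GBM. Its normal libraries were thus above the UUO and anti-GBM libraries in WT and overlapped with both in KO.

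The B1-matched ncRNA_aligned_3202 was one of the steadiest transcripts on the CPM scale. It ranged from 144 to 203 CPM over the 12 libraries, and its group means differed by at most 1.13-fold. Its coefficient of variation was 13.0%, and 5 of the 1337 transcripts with a mean of 100 CPM or more had a smaller one, where the median was 40.9%. Its log2 fold changes in the 9 comparisons of 2 groups ran from -0.14 to 0.18. On the RPKM scale, which is not corrected for the most abundant transcripts, the same transcript ran from 17.3 to 41.0.

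As a whole the members varied about as much as other transcripts of like level. Over the 34 members with a mean of 5 CPM or more the median coefficient of variation was 43.2%, against 49.1% over 6132 transcripts. The highest group mean was over 2 times the lowest in 79.4% of these members and in 78.6% of the transcripts. The group with the highest mean was WT UUO for 9 of the 34 members (26.5%, against 15.2% of the transcripts), and WT UUO was also the group with the lowest mean for 14, as it was for 38.9% of the transcripts.

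A few members followed the library rather than the group, a smaller share than among all transcripts tested. ncRNA_aligned_6101, the third most abundant B2-matched transcript in CPM, had 62.7, 77.3 and 77.0 CPM in the 3 low-breadth libraries and 178 to 434 in the other 9. ncRNA_aligned_6643 had 0.000 to 0.852 CPM in those 3 and 3.05 to 10.4 in the others. These 2 of 58 members lay below the range of the other 9 libraries, as did 8.24% of all transcripts tested, and 0 members lay above it, against 3.74%. Within the libraries of higher breadth ncRNA_aligned_6101 had 305 and 364 CPM in WT normal and 178 in WT UUO 2. On the RPKM scale it had 39.4 and 45.7 in WT normal and 49.4 in WT UUO 2, so this direction depended on the scaling.

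Transcripts whose match names another RNA that RNA polymerase III makes were looked up for comparison. This list held 21 transcripts of 154 to 6575 bases that matched tRNA, U6, 7SK, 4.5S or RNase MRP RNA, and 15 were tested. Where the match lies within a longer transcript, as with the members, the level is not a measurement of the free RNA. In WT UUO 0 were called higher and 1 lower, against 0.681% and 1.74% of all transcripts tested. The 1 called lower was ncRNA_aligned_6546, a tRNA match of 1103 bases. It went from 263 ± 15.2 to 48.8 ± 14.9 CPM (log2 fold change -2.43 ± 0.48, edgeR adjusted p = 0.00606). The median log2 fold change of the list was -0.08 in that comparison, beside -0.09 for the members and 0.49 for all transcripts. In the other 10 comparisons edgeR called 0 of the 15.

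Members with neighbouring running numbers may stem from neighbouring or overlapping gene models. There were 6 such runs with 13 members, among them ncRNA_aligned_1729 to 1731, ncRNA_aligned_2798 and 2799, and ncRNA_aligned_5874 and 5875. ncRNA_aligned_2799, of 6081 bases, had 24.0 and 28.4 CPM in WT normal and 3.43 and 4.28 in WT UUO, a log2 fold change of -2.75 ± 0.78 (edgeR adjusted p = 0.0606) beside the -2.62 of ncRNA_aligned_2798. Whether such neighbours share sequence or reads was not tested, and only uniquely mapped reads were counted, so reads from near-identical repeat copies are missing from all values.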

How the data were processed

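Kidney RNA of 12 libraries was depleted of ribosomal RNA and sized on a urea gel, per the labels' protocols. The submitters' processing notes name Bowtie 0.12.7 and the mouse build mm9. How transcripts were defined, how reads were assigned and whether strand was used are not given in the sources used here, so a transcript and one on its other strand cannot be separated. The deposited tables give, per the file headers, counts of uniquely mapped reads, RPKM, the percent of each transcript covered and the mean depth of coverage. The deposited RPKM values equal reads per length and per total listed reads. Unlisted transcripts were taken as 0.

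Members were found by the text of the match. Members and lists were chosen with earlier results of these data known. The rule for named members took those called in any comparison, the 5 of highest mean RPKM per list, and per comparison up to 3 higher and 3 lower of largest log2 fold change with a mean of 5 CPM or more; 24 resulted, and the text names most of them. Others named were chosen after their values were seen (among them ncRNA_aligned_1731, ncRNA_aligned_3579, ncRNA_aligned_6546 and ncRNA_aligned_6643). Lists of other repeats and of entries naming SINE RNA alone found 0 transcripts, and no cell type marker is named in the tables.

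Counts were tested with edgeR 4.0.16 (R 4.3.3; TMM, filterByExpr, 1 mean per group, robust quasi-likelihood F tests, 11 contrasts) over 24816 transcripts, with Benjamini-Hochberg adjustment and a threshold of 0.05. Standard errors come from the F statistic. DESeq2 1.42.0 and limma 3.58.1 on log2(RPKM + 0.1) were alternatives, beside other scaling, no filter, libraries left out and fits on the groups compared. The edgeR fit was tested on simulated data. With 2 libraries against 2 no permutation p can fall below 0.333, and p-values measure the spread between these libraries, which may be technical. The breadth ratio used transcripts over 500 bases with 20 to 200 reads of 90 bases; members with 20 or more reads in a library have a ratio there.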

Additional observations from a re-analysis of the deposited data

How the results depend on the processing

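No paired analysis was possible because the labels carry no replicate numbers; the numbers only tell libraries of a group apart. Counts of members called, of 58 tested, depended on the processing. Comparisons are listed in 1 order: WT UUO, WT anti-GBM, KO UUO and KO anti-GBM against normal, KO against WT in normal, UUO and anti-GBM, UUO against anti-GBM in WT and KO, and the UUO and anti-GBM interactions. The main counts were 5, 0, 0, 0, 0, 0, 0, 1, 0, 0 and 0. On the 9 libraries of higher breadth, where 3 groups have a lone library assumed to vary like the others, they were 13, 7, 3, 0, 0, 1, 5, 4, 1, 4 and 1, against 10.8% of all transcripts in WT UUO and 0.475% to 7% in the others. DESeq2 gave 11, 1, 1, 0, 0, 1, 0, 2, 0, 2 and 1 (5.55% and 0.177% to 1.75%). Library size alone gave 8, 0, 1, 0, 0, 1, 0, 2, 0, 1 and 0 (4.12% and 0.0363% to 0.862%), and no filter 7, 1, 0, 1, 1, 2, 1, 1, 0, 2 and 1 (2.46% and 0.132% to 0.514%). Fits of only the groups compared gave 7, 10, 0, 0, 1, 0, 1, 1, 0, 0 and 1 (4.47% and 0% to 9.13%, the latter in WT anti-GBM), limma 3 and then 0 throughout (3.24% and at most 0.214%), and DESeq2 size factors 4 in WT UUO and the main counts elsewhere (2.34% and 0.00806% to 0.169%). All 5 main calls in WT UUO were among those of DESeq2, of no filter and of the 9 libraries. The groups compared lost ncRNA_aligned_2798, DESeq2 size factors and library size alone lost ncRNA_aligned_2798 and ncRNA_aligned_7130, and limma lost these and ncRNA_aligned_5163. Leaving out 1 library on the same transcripts gave 1 to 9 in WT UUO, 0 or 1 in WT anti-GBM, in UUO against anti-GBM in WT and in both interactions, and 0 elsewhere (0.544% to 4.89% of all in WT UUO, at most 0.741% in the others).

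These left-out fits were first run with the filter on low counts applied again, which also changes the transcripts tested (32560 to 35973); the fixed set was adopted after those values were seen. With the filter reapplied and 1 library left out the ranges were 3 to 12, 0 to 2, 0 to 4, 0 to 1, 0 to 1, 1 to 3, 0 to 2, 0 to 3, 0 to 3, 1 to 4 and 1 to 1 (1.15% to 6% of all in WT UUO, 0.0308% to 3.73% in the others). For the 9 libraries it gave 15, 9, 3, 2, 1, 4, 6, 4, 2, 4 and 4 (11% and 0.876% to 7.44%), and for the groups compared 6, 8, 0, 0, 1, 0, 0, 0, 0, 0 and 1 (4.17% and 0% to 14.7%, the latter in WT anti-GBM). The cause was not tested.

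The log2 ratio of the B2 sum in WT UUO (-1.54) became -0.28 by RPKM, -0.49 by library size, -1.27 by DESeq2 size factors and -0.016 without ncRNA_aligned_7130. In WT anti-GBM (-1.60) these were -0.63 by RPKM, -0.87 by library size and -0.33 without 7130. Without 7130 it became 0.18 in KO anti-GBM (from 0.90), -0.11 in KO against WT normal (-1.26) and 0.39 in KO against WT anti-GBM (1.24), the last also 0.26 by RPKM and 0.48 by library size. The B1 sum in WT UUO (-0.08) became 0.95 by RPKM, 0.96 by library size and 0.19 by DESeq2 size factors. By RPKM, library size and without ncRNA_aligned_3202 it was 0.61, 0.71 and -0.52 in WT anti-GBM (-0.03), 0.33, 0.51 and -0.93 in KO UUO (-0.10), -0.40, -0.29 and -0.49 in KO against WT UUO (0.10), and -0.34, -0.55 and 1.13 in KO against WT anti-GBM (0.20). Leaving out 1 library moved no list ratio by more than the spread between libraries, but that spread was wide in KO UUO. The B2 ratio of KO UUO to KO normal (0.43) ran from -0.14 without KO UUO 2 to 1.00 without KO UUO 1, and that of KO to WT UUO (0.71) from 0.14 to 1.28 without the same libraries.

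Of the log2 fold changes picked by the rule for named members, that of ncRNA_aligned_1255 in KO against WT normal (0.85) changed sign. With 1 library left out it ranged from -0.054, without KO normal 2, to 1.401, without KO normal 1, and with the filter reapplied the lowest value was -0.068. It was not called. Other comparisons of these members, such as ncRNA_aligned_7130 in KO UUO against KO normal, were not part of this check of signs. Members with few reads, such as ncRNA_aligned_5163 in WT UUO, are limited by depth.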
